A study of Mus musculus with 12 samples.

Results

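The regions described here are the accessible sites of mouse hematopoietic stem cells (HSCs) that lie in gene deserts, the stretches of the genome that hold no annotated gene and no nearby transcription start. They were found from 12 lists of ATAC-seq peak summits. ATAC-seq marks open chromatin, because a transposase inserts sequencing adapters where DNA is accessible, and a summit is the base at which a peak is highest. Summits with a score of at least 3 on chromosomes 1 to 19 and X were widened by 250 bp on each side and merged over the lists, which gave 70945 regions, and the highest-scoring summit set the position of each region. A region was placed in a gene desert when its position lay outside every gene of the GENCODE annotation of the mm10 genome and more than 50 kb from the nearest transcript start. This rule, which used no comparison between groups, kept 2918 of the 70945 regions (4.11%), called members below. The score of a summit is the −log10 of the q-value given by the authors' peak caller, so a score of 3 stands for a q-value of 0.001.

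There were 4 groups of 3 libraries, all from C57BL/6 mice: wild-type (WT) mice at 3 months (Young WT) and at 18 months (Aged WT), and mice without Mlkl at the same ages (Young Mlkl-/- and Aged Mlkl-/-). Mlkl encodes the pseudokinase that carries out necroptosis, and its loss was constitutive, so that every cell of these mice lacked it. HSCs were sorted from bone marrow as Lin-, c-Kit+, Sca-1+, Flk2-, CD48-, CD150+ cells, and per the study's methods each library came from a pool of several mice, with more mice in a young pool than in an aged one. The design asks what age does to the accessible chromatin of HSCs and whether Mlkl has a part in it.

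Gene deserts are poor in genes but not empty of function. Many hold enhancers, short stretches bound by transcription factors that act on a promoter a long way off by looping of the chromatin, and the deserts beside developmental regulators such as Myc, Runx1 and Gata3 are well-known examples. In blood stem and progenitor cells such elements are often bound by ETS, RUNX and GATA factors, while AP-1 factors bind elements that respond to stress, growth and inflammatory signals. CTCF, a zinc finger protein, anchors loops between distant sites. The nearest gene of a region is a description of its position here and not of the gene it acts on.

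Below are 7 of the regions that the results turn on, as the 201 bases centred on the region position (mm10, plus strand, read from the RefSeq copy of this build). Capitals mark matches to the motifs searched on either strand, where N stands for any base. The words searched for were AGGAAGT for the ETS factors, TGTGGTT for RUNX factors and AGATAAG for GATA factors. For the stress-responsive AP-1 factors the word was TGANTCA, and for the helix-loop-helix factors that bind an E-box it was CAGATG. CEBP factors of myeloid cells were represented by TTGCNNAA and the homeodomain MEIS factors by TGACAG. The words for the KLF, interferon regulatory (IRF) and cAMP response (CRE) factors were GGGNGTGG, then GAAANNGAA, and TGACGTCA. CTCF and NF-kB were searched with their consensus sequences, and matches of different words may overlap. The first 4 are the gene-desert regions with the largest increase with age, the fifth is the one with the largest decrease, and the last 2 are those with the highest mean rank over the 12 libraries.
Rise near Kcna4, chr2:107231793-107231993, GATA match: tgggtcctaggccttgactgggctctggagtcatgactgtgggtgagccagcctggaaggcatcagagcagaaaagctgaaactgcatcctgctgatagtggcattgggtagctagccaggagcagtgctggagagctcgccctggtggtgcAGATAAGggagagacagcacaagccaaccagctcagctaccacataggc
Rise near Gm5815, chr17:58643949-58644149, AP-1 match: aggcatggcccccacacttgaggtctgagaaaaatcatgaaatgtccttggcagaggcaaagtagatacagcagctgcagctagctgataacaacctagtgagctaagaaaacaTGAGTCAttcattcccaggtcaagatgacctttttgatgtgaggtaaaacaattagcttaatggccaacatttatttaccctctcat
Rise near 9330185C12Rik, chr1:114039483-114039683, RUNX and ETS matches: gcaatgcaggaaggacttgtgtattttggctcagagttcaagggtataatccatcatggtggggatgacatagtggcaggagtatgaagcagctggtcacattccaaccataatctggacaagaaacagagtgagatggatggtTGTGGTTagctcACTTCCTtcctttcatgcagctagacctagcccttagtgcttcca
Rise near Gm29785, chr9:12496916-12497116, no match: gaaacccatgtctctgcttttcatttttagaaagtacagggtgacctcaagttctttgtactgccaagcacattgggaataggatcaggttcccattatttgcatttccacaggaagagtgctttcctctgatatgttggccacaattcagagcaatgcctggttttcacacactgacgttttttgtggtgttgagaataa
Fall near Gm43574, chr3:148220953-148221153, E-box match: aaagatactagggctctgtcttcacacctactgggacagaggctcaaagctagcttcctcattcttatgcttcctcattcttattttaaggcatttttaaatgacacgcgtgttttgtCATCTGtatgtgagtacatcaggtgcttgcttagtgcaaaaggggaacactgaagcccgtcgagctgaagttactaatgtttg
Strongest region, nearest start Gm5110, chr6:9889935-9890135, E-box match: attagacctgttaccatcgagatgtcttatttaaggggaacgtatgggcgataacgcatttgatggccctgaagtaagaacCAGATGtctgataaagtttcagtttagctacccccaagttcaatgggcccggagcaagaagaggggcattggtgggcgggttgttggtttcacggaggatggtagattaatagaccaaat
Second strongest region, nearest start Ndufa4, chr6:11594081-11594281, GATA, RUNX and MEIS matches: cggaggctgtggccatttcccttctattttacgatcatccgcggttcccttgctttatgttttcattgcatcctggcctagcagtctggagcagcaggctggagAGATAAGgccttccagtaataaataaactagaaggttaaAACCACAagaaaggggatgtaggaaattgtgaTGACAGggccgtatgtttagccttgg

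In the plain composition of their sequence, gene-desert regions differed from the catalogue as a whole, of which 29.3% lay within 1 kb of a start. The bases within 250 bp of their positions had a mean GC content of 44.9%, against 51.2% over all regions, and a ratio of observed to expected CpG of 0.238 against 0.364. Repeats masked in the reference covered 18.97% of these bases against 14.3%, and in 228 of the 2918 regions (7.81%) at least 50% of the bases were masked. Intergenic regions between 1 and 50 kb from a start lay between, with a GC content of 47.9% and 18.0% of repeat bases. Intronic regions had a GC content of 47.5% and 15.8% of repeat bases, and their CpG ratio (0.240) was close to that of the members. Within 100 bp of the position, ETS matches were found in 20.4% of gene-desert regions against 16.1% of all regions, RUNX matches in 15.3% against 10.3%, and GATA matches in 5.83% against 3.99%. Intronic regions were close to the members in ETS, with 19.7%, 13.3% and 4.93% for these words. Nearer intergenic regions had 17.9%, 11.9% and 4.88%. AP-1 matches were in 13.02% against 10.2% (12.5% of intronic and 12.2% of nearer intergenic regions). CEBP matches were in 11.2% against 8.08% (8.96% and 9.45%). Matches to KLF, a GC-rich word, went the other way, with 5.69% against 9.10%, as did CRE with 0.308% against 0.868%. Intronic and nearer intergenic regions lay between the members and all regions for each of these words, KLF and CRE included. CTCF matches were in 5.52% of gene-desert regions, 4.97% of all regions and 7.45% of intergenic regions 1 to 50 kb from a start. E-box (18.0% against 14.3%), IRF (9.90% against 7.38%), MEIS (14.8% against 14.3%) and NF-kB (0.274% against 0.388%) complete the list. These shares are descriptions with no test, and a match is a run of letters and not a bound site.

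The deserts cover 404 Mb, or 15.8% of the known bases of these chromosomes. They held 7.22 regions per Mb, against 31.6 per Mb for the rest of the genome. Chromosome 2 had the most members (280) and chromosome 19 the fewest (35). Per Mb of desert, chromosomes 13 (10.9) and 2 (10.4) were densest and chromosome X (3.15) was the sparsest, and X was also lowest outside deserts (13.5 per Mb). The median distance to the nearest start of any kind was 77.0 kb, the largest was 552 kb, and the median distance to the nearest protein-coding start was 150.6 kb.

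Gene-desert regions were also found in fewer of the full lists, which hold all summits with a score of at least 3. Of the 2918, 417 (14.3%) had a summit in all 12 lists and 628 (21.5%) in 1 list, against 28.6% and 17.0% of all regions, and the median member was in 5 lists while the median region was in 7. Intronic regions (17.1% in all 12) and intergenic regions nearer to genes (18.3%) lay between, and regions within 1 kb of a start were far more constant (55.6%). The members in all 12 lists held ETS matches more often than those in 1 list, 29.5% against 17.2%, and RUNX matches in 18.0% against 12.1%. Their repeat content was lower, 14.6% against 23.7%. Where a gene-desert region was called, its score was like that of other sites away from starts. The median score of called members was 7.41 to 9.62 over the 12 libraries, 7.72 to 9.62 for nearer intergenic regions and 13.6 to 18.4 at starts.

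A few gene-desert regions scored well above the median at starts in every library. The strongest lay on chromosome 6 (chr6:9889781-9890295), 283 kb from the start of Gm5110 and between Nxph1, which encodes a neurexin ligand, and Ndufa4, which encodes a mitochondrial protein, at 940 and 2017 kb. Its scores were 112, 101 and 111 in Young WT, 122, 149 and 105 in Young Mlkl-/-, 125, 113 and 162 in Aged WT, and 156, 156 and 133 in Aged Mlkl-/- libraries. No library was low and the groups overlapped, and the change with age in its within-list rank was 0.03 ± 0.32 (SE of the normal score explained below, limma adjusted p = 0.972). The second, on the same chromosome (chr6:11593395-11594439, 313 kb from Ndufa4), scored between 46.4 and 82.3 in the 12 libraries. The third (chr2:53478992-53479532, 72.7 kb from Gm13503) scored between 29.5 and 72.4. The other 5 of the 8 strongest lay near Gm20281, Gm49677, Gm22566, 4921511I17Rik and Gm38194, and none of the 8 passed the test for age. The region near Gm22566 (chr10:25118497-25119524) lies 80.9 kb from the coding gene Akap7, whose product anchors protein kinase A.

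Properties of the lists are given once here. The lists held between 36805 and 63125 summits, and 35696 to 61465 with a score of at least 3. Aged lists tended to be longer, with overlap, at 50966 to 58617 in Aged WT and 47007 to 61465 in Aged Mlkl-/- against 37449 to 47181 in Young WT and 35696 to 56329 in Young Mlkl-/-. All lists were therefore reduced to their 35696 highest summits (the length of the shortest, Young Mlkl-/- replicate 3). Read depth is unknown, because the lists hold no counts, and each library is a pool of mice, so that p-values measure the spread between libraries. Of 12 HSC marker genes, 7 to 10 had a summit within 1 kb of a start in young and 9 to 11 in aged lists, with Kit, Hlf and Fgd5 in every list and Slamf1, which encodes CD150, in none. The starts of Cd3e, Cd3g, Cd4, Cd8a, Cd79a, Ms4a1, Mpo, Elane, Ly6g, Csf1r and S100a8, which mark T cells, B cells, granulocytes and monocytes, had no summit in any list. The B cell genes Pax5 and Ebf1, as well as Pf4, Itga2b, Gp9 and Vwf (4 of 5 megakaryocyte genes), Epor, Pecam1 and Flt3, whose product Flk2 the sort gates out, had one in every list. T cell genes numbered 0 to 1 of 5 at both ages, granulocyte and monocyte genes 0 to 1 of 7 in young and 0 to 2 in aged, erythroid genes 1 to 3 and 2 to 3 of 6, and stromal and endothelial genes 2 to 3 and 2 to 5 of 5. Whether these differences have a part in the age results was not tested.

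With lists of equal length, a larger share of the regions called in aged HSCs lay in gene deserts. In Young WT libraries 2.56%, 2.58% and 2.64% of the called regions were gene-desert regions, and in Young Mlkl-/- libraries 2.80%, 2.81% and 2.44%. In Aged WT the shares were 3.22%, 2.79% and 3.39%, and in Aged Mlkl-/- 3.38%, 3.40% and 3.29%. All aged libraries but 1 stood above all young ones, and Aged WT replicate 2 overlapped with 2 of the Young Mlkl-/- libraries. The mean was 2.64% ± 0.145 in young and 3.25% ± 0.234 in aged libraries (SD, n = 6), a difference of 0.606 percentage points or 23.0% of the young mean. It passed an exact two-sided permutation test of age labels within each genotype (p = 0.005, the smallest that the 400 labellings can give, and 0.025 after Benjamini-Hochberg adjustment over the 5 region classes).

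The other region classes did not pass this test. The aged minus young difference was 0.343 points for intergenic regions 1 to 50 kb from a start (21.01% in young, exact permutation p = 0.51), 0.746 for intronic regions (27.4%, p = 0.335), −0.0255 for exonic regions (3.08%, p = 0.645) and −1.67 for regions within 1 kb of a start (45.9%, p = 0.24). To compare deserts with the most alike class directly, the gene-desert regions were also counted as a share of all called regions outside genes and over 1 kb from a start. This share was 10.9% to 11.6% in the young and 12.2% to 13.5% in the aged libraries, and the ages did not overlap. The difference was 2.02 points (11.2% ± 0.265 and 13.2% ± 0.461, SD, n = 6, exact permutation p = 0.005). This second share was chosen after the first had been seen.

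**Figure D1:**
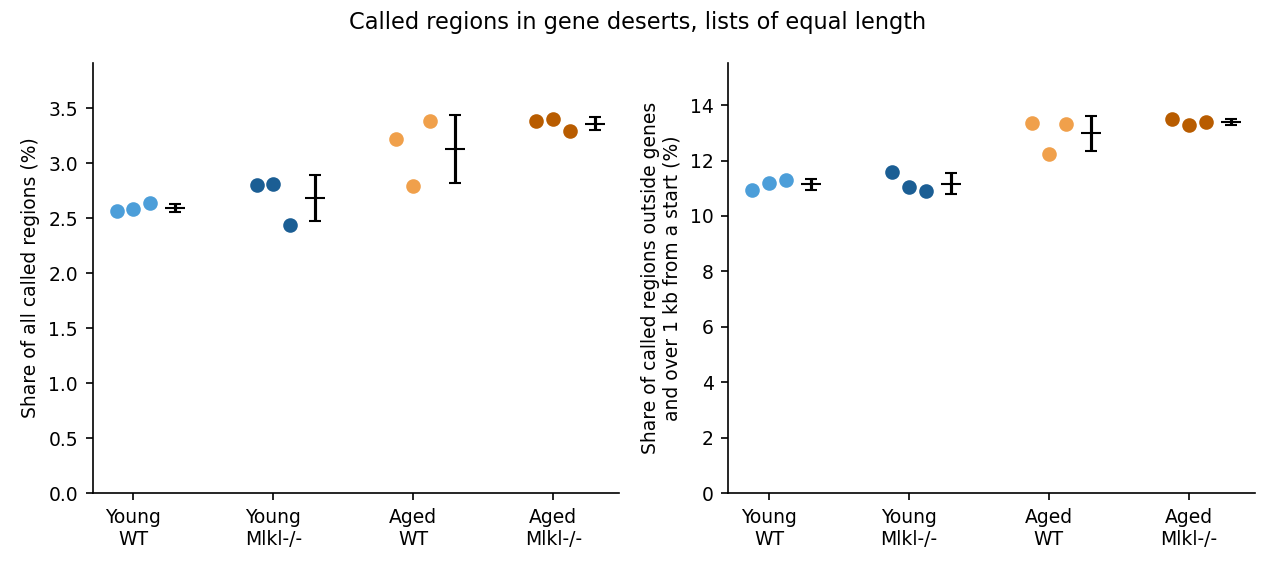
Percentage of called regions that lay in gene deserts in each of the 12 libraries (points, with group mean and SD, n = 3), among all called regions on the left and among called regions outside genes and over 1 kb from a start on the right. Young libraries lie between 2.44% and 2.81% on the left and aged ones between 2.79% and 3.40%, and on the right the ages do not overlap (10.9% to 11.6% and 12.2% to 13.5%).

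Several properties of the lists moved with age too. Aged lists tended to be longer before the reduction, and the mean GC content of called regions was 54.8% ± 0.631 in young and 54.1% ± 0.598 in aged libraries (SD, n = 6). Libraries with longer lists had larger desert shares also after the reduction. Over the 12 libraries Pearson's r was 0.748 (permutation p = 0.00606, 0.0182 adjusted over 3 relations) and Spearman's rho 0.685 (p = 0.0169, 0.0508 adjusted), and r was 0.640 without the 2 libraries farthest from the median length. Within the 6 young libraries r was 0.747 (exact permutation p = 0.103, 0.154 adjusted), rho 0.600 (p = 0.242, 0.363 adjusted), and r fell to 0.163 without the 2 farthest. Within the 6 aged libraries r was 0.285 (exact permutation p = 0.561, 0.561 adjusted) and rho −0.0286 (p = 1, 1 adjusted), with an r of 0.326 without the 2 farthest. The part of list length in the age difference was not tested for this share. After the share expected from the GC content of each library's called regions was subtracted, the age difference was 0.349 points (exact permutation p = 0.005). Summits at the Y genes Ddx3y, Eif2s3y, Kdm5d and Uty were in 3 of 6 young and 0 of 6 aged libraries, and the part of the animals' sex was not tested for this share.

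The test did not tell the genotypes apart by this share. WT libraries had 2.86% ± 0.353 and Mlkl-/- libraries 3.02% ± 0.395 of their called regions in deserts (SD, n = 6), and the difference of 0.160 points did not pass (exact permutation p = 0.155). It passed without Young Mlkl-/- replicate 3 (0.221 points, exact permutation p = 0.02). The age difference in Mlkl-/- exceeded that in WT by 0.137 points, which did not pass either (genotype labels permuted within each age, exact permutation p = 0.64).

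Single regions were compared by their rank within each list. All 70945 regions were ranked by their highest score in a library's equal-length list. Ranks were turned into normal scores, the values that a normal distribution with mean 0 and SD 1 has at these ranks. Regions with no summit in the equal-length list shared a normal score of −0.575 to −0.525. The 37868 regions called in at least 3 equal-length lists were tested with limma, and p-values were adjusted over all of them. Of the 2918 gene-desert regions 1232 were tested. The other 1686 comprised 949 that were in no equal-length list and 737 that were in 1 or 2.

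With age over both genotypes, 76 gene-desert regions were higher in rank (6.17% of the 1232, against 1.7% of all regions tested) and 8 were lower (0.649%, against 0.998%) at a limma adjusted p under 0.01. The median change of the tested members was 0.15 against −0.01 for all regions, and 785 of the 1232 (63.7%) changed upward against 49.1%. Intergenic regions nearer to genes had 2.24% higher and 1.254% lower, intronic regions 2.505% and 1.49%, exonic regions 1.58% and 1.74%, and regions at starts 0.434% and 0.447%. Young and aged normal scores were free of overlap in 83 members that were higher (6.74%, against 2.12%) and 18 that were lower in aged (1.46%, against 1.75%). The tested members include some called in aged equal-length lists alone and some called in young ones alone, whose normal scores had to differ between ages. Among the 291 members called in all 12 equal-length lists 11 were higher and 3 lower (3.78% and 1.03%, against 1.005% and 0.728% of all such regions).

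The count depended on list length and library. With the number of summits as a covariate 11 members were higher and 0 lower (0.893%, against 0.129% of all regions higher), and with a covariate for summits at the 4 Y genes 35 and 1 (2.84%, against 0.724%). Leaving out 1 library left between 58 and 81 members higher. The count of lower members fell to 1 to 4 without any 1 of Young WT replicates 1, 2 and 3, Young Mlkl-/- replicate 1, Aged WT replicates 1, 2 and 3 and Aged Mlkl-/- replicates 1 and 2, and stayed at 6 to 9 without any other.

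**Figure D2:**
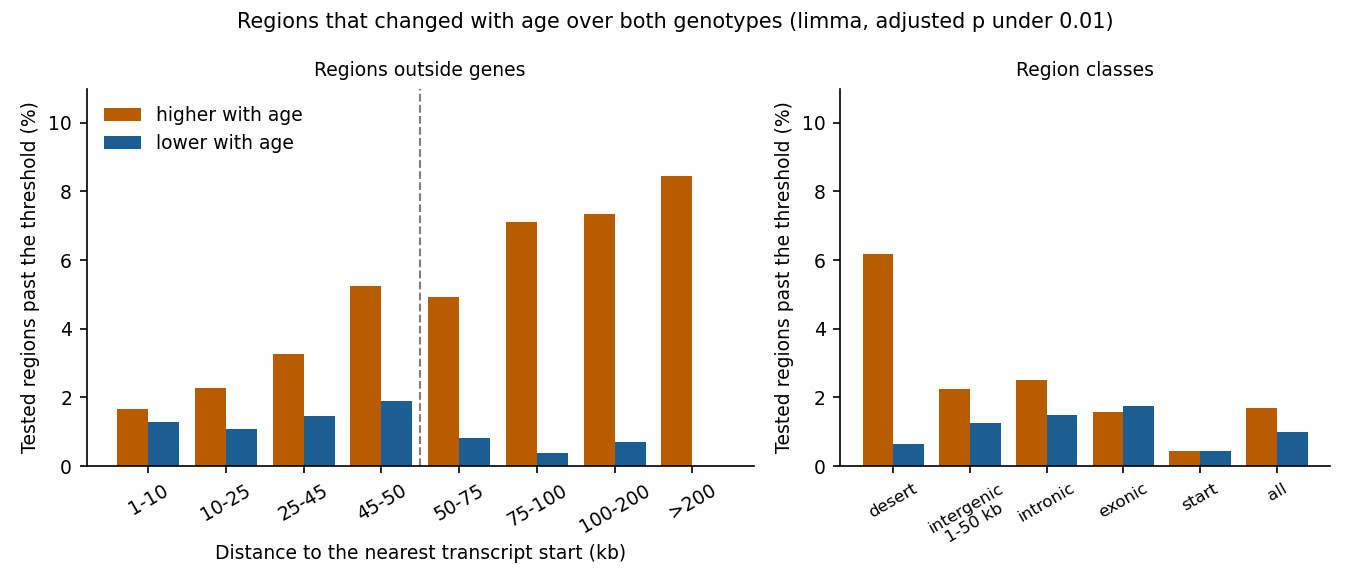
Percentage of tested regions past the limma threshold (adjusted p under 0.01) for age over both genotypes, higher in orange and lower in blue, by distance to the nearest start for regions outside genes (left, the dashed line marks 50 kb) and by region class (right). The share of higher regions goes from 1.67% at 1 to 10 kb to 8.45% beyond 200 kb, and is 6.17% over all gene-desert regions.

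The share of regions that were higher tended to be larger farther from a start, on both sides of the 50 kb limit. It was 1.67% between 1 and 10 kb, 2.27% between 10 and 25 kb and 3.26% between 25 and 45 kb from a start. Just outside the limit, at 45 to 50 kb, 11 of 210 tested regions were higher (5.24%), and just inside, at 50 to 55 kb, 9 of 168 (5.36%). Within the deserts the share was 4.93% at 50 to 75 kb, 7.12% at 75 to 100 kb, 7.34% at 100 to 200 kb and 8.45% beyond 200 kb, the last resting on 6 of 71 regions. Mean GC content fell along the same bins from 48.4% at 1 to 10 kb to 42.3% beyond 200 kb. The shares within 4 GC classes are given as a description, and the part of GC content in the difference between region classes was not tested. At a GC content of 40% to 45%, 8.95% of the members were higher, against 4.11% of the nearer intergenic and 3.46% of the intronic regions. At 50% and above these were 3.01%, 0.885% and 1.0002%, at 45% to 50% they were 5.10%, 2.07% and 3.10%, and below 40% they were 6.87%, 5.18% and 4.75%.

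The 76 regions that rose did so by 0.64 to 3.04 in normal score, with a median of 1.20. Every one of them had a positive change in both WT and Mlkl-/- mice, but they were chosen by the mean change of the 2 genotypes. Their agreement in sign is therefore largely set by that choice. They were spread over 18 chromosomes, with 1 on X, and had 73 different nearest protein-coding genes. Only Gbe1, Gm9008 and Zfp804a were nearest to 2 of them. In aged libraries 75 or 76 of the 76 were called, and in young ones 15 to 24 of the equal-length and 15 to 38 of the full lists, with the most in Young Mlkl-/- replicate 2. Of the 76, 44 were in no young equal-length list and 32 had no summit in any young full list. The 44 entered the test through aged libraries alone, so their tests add no support beyond the scores. Shares over all regions that rose are not given for these counts, which therefore do not set the members apart. By the presence of summits alone, 88 of the 2918 members were in all 6 aged and in none of the 6 young full lists (3.02%, against 0.841% of all regions), and 1 was the other way round (0.0343%, against 0.055%). Aged full lists tended to be longer, so that counts of presence in full lists lean toward the aged.

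The largest rise was beside Kcna4, which encodes a voltage-gated potassium channel (chr2:107231635-107232159, 58.7 kb from its start). No young library had a summit there. Scores were 44.5, 51.2 and 61.1 in Aged WT and 69.0, 56.2 and 62.3 in Aged Mlkl-/- libraries. All aged libraries were thus high, without overlap, and the normal score went from −0.54 ± 0.02 to 2.49 ± 0.42 (SD, n = 6), a change of 3.04 ± 0.16 (SE, limma adjusted p = 8.30e-09). All young values are the score shared by regions with no summit, so the SD of 0.02 reflects the lists and not this region. The region entered the test through aged libraries alone, so its p-value adds no support beyond the scores. The same holds for the region near Gm5815 (chr17:58643433-58644313), which lies between Cntnap5c, a member of the contactin-associated family, and Pdzph1. It was absent from the young and scored 37.3, 33.9 and 25.6 in Aged WT and 43.9, 37.0 and 53.0 in Aged Mlkl-/-, a change of 2.28 ± 0.16 (limma adjusted p = 3.14e-07).

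Other regions were already open in young mice and became stronger. Near 9330185C12Rik, in the desert between Dsel (2175 kb) and Cntnap5a (1645 kb) (chr1:114039333-114039871), scores were 15.5, 7.65 and 0 in Young WT and 13.4, 13.9 and 0 in Young Mlkl-/-, where 0 means no summit. In aged libraries they were 61.4, 32.7 and 62.8 (WT) and 58.4, 48.7 and 73.1 (Mlkl-/-), so that every aged value exceeded every young one. The change was 2.13 ± 0.26 (limma adjusted p = 1.47e-04). A region 141 kb from Gm47636, between Rasa1, which encodes a Ras GTPase-activating protein, and Cox7c (chr13:85724074-85724597), was in 5 of 6 young libraries with scores up to 32.8 and had 51.4 to 77.2 in the aged, a change of 1.69 ± 0.24 (limma adjusted p = 4.42e-04).

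Some lay near genes with a known place in blood or signalling. Rgs18, a regulator of G protein signalling found in blood and platelet precursors, has a region 78.0 kb from its start (chr1:144853184-144853743). Only Young WT replicate 1 (5.09) and Young Mlkl-/- replicate 1 (7.51) had a summit there among young libraries, and aged scores were 21.2 to 41.2, a change of 1.82 ± 0.19 (limma adjusted p = 3.61e-05). Epha4, which encodes an ephrin receptor, has one at 95.6 kb (chr1:77281708-77282258) with a change of 1.68 ± 0.22 (limma adjusted p = 2.43e-04). A region 120 kb from Ppargc1a, which encodes a coactivator of mitochondrial biogenesis (chr5:51433832-51434359), has Gm42614 as its nearest start, at 50.2 kb. It changed by 1.55 ± 0.21 over both genotypes (limma adjusted p = 2.68e-04) and by 1.67 within WT (limma adjusted p = 9.61e-03). Within Mlkl-/- it changed by 1.42 (limma adjusted p = 0.0225). The change with age did not differ between genotypes by the test (−0.25, limma adjusted p = 0.964). Beside Ndufa4, the region at 372 kb (chr6:11534892-11535434) rose by 1.81 ± 0.19, while the second strongest member of all, between it and the gene, did not pass, and another at 180 kb (chr6:11727302-11727866) fell by 0.77 ± 0.15 (limma adjusted p = 3.15e-03). The region at 372 kb was in no young equal-length list and entered the test through aged libraries alone. Its test therefore adds no support beyond the scores.

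The other regions among the 12 with the largest rise lay near Gm29785, Gm5037, Gm23900, Gm826 and Gm47332. That near Gm29785 (chr9:12496735-12497304), 263 kb from this start, had scores of 0 to 14.7 in the young and 36.4 to 60.4 in the aged libraries, and its change was 1.93 ± 0.19 (limma adjusted p = 2.00e-05). Those near Gm5037 (1.77), Gm23900 (1.70), Gm826 (1.66) and Gm47332 (1.66) had a summit in at most 1 young library and in every aged one. None of these was in a young equal-length list, so their tests add no support beyond the scores. The region near Gm47332 (chr10:48093281-48093808) is 75.6% repeat bases.

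**Figure D3:**
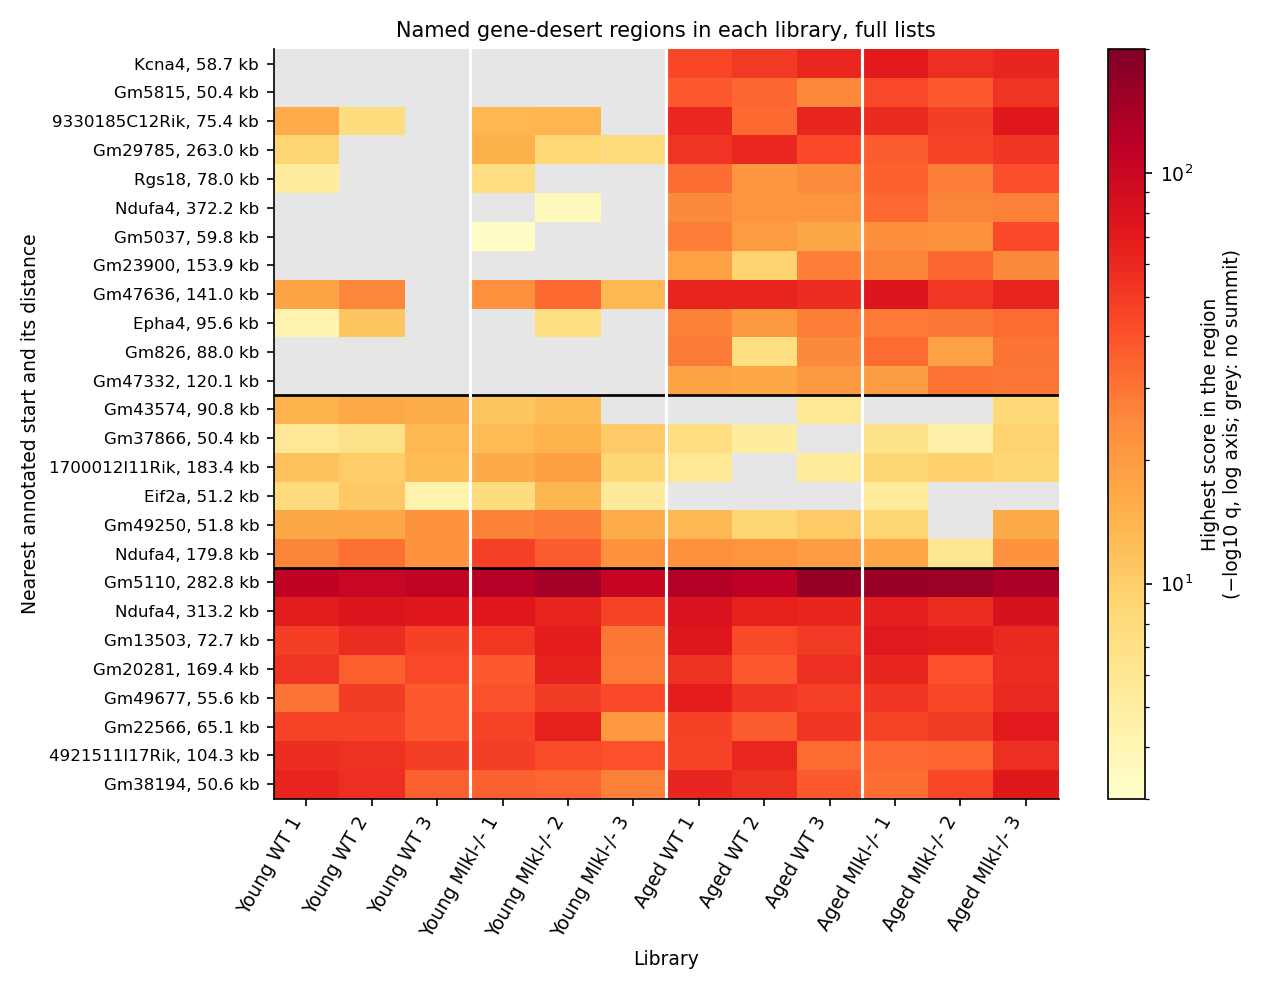
Highest summit score (−log10 q, log colour scale, grey for no summit) of 26 gene-desert regions in each library's full list: the 12 with the largest increase and the 6 with the largest decrease with age whose normal scores did not overlap, and the 8 strongest, each named by its nearest start. The upper block is grey or pale in the young and filled in all 6 aged libraries, the middle block is stronger in most young libraries and partly filled in aged ones, with overlap of the scores between ages, and the lower block is filled in all 12.

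The 8 regions that fell changed by −0.52 to −1.17, less than most of those that rose, and their loss was partial in the full lists. In 6 of them the normal scores in equal-length lists did not overlap between ages, but the summit scores did in each of these. For the region near Gm43574 the lack of overlap rests on the normal score given to regions with no summit in a library's equal-length list. This score differs slightly between libraries. None of the 8 was without a summit in all aged full lists, which tended to be longer than the young ones, and 3 had a summit in all 6. In equal-length lists 2 of the 8 were called in no aged library. The largest decrease lay in the desert between Ttll7 and Adgrl2 (chr3:148220781-148221308, 90.8 kb from Gm43574). Its scores were 14.3, 16.4 and 15.3 in Young WT, 11.1, 12.6 and 0 in Young Mlkl-/-, 0, 0 and 5.85 in Aged WT, and 0, 0 and 8.40 in Aged Mlkl-/-. Young Mlkl-/- replicate 3 was at 0, as were 4 aged libraries, and the change was −1.17 ± 0.24 (limma adjusted p = 5.62e-03). The region 51.2 kb from Eif2a, which encodes a translation initiation factor (chr3:58474214-58475108), was in all young libraries (4.35 to 13.7) and in 1 aged library (5.40), with a change of −1.04 ± 0.21 (limma adjusted p = 4.47e-03). Near Gata3, a regulator of T cell and HSC programs, a region 192 kb from its start (chr2:9681521-9682221) fell by 1.08 ± 0.23 (limma adjusted p = 8.18e-03), with summits still in 5 of 6 aged libraries. That beside Ndufa4 was in all 12 libraries, with 22.2 to 47.7 in the young and 6.22 to 23.2 in the aged. The remaining 2 without overlap in normal score, both on chromosome 15 (chr15:67409906-67410483 near 1700012I11Rik and chr15:8581064-8581623 near Gm49250), fell by 1.04 and 0.89.

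Within a single genotype fewer regions passed, all of them upward. In WT 8 members were higher (0.649%, against 0.156% of all regions) and 0 lower (against 0.0449%), and in Mlkl-/- 12 were higher (0.974%, against 0.14%) and 0 lower (against 0.0106%). In both genotypes 5 passed (0.406%). The share over all regions is not given for this count, so it does not set the members apart. The WT and Mlkl-/- changes come from different libraries. Their tests are not independent, because 1 fit of all 12 libraries gave both a shared estimate of spread and all lists decided which regions were tested. The 8 that passed in WT all had positive changes in Mlkl-/-, of 1.39 to 3.20, and the 12 that passed in Mlkl-/- all had positive changes in WT, of 1.26 to 2.87. Those not yet named include regions near Mgat4c (chr10:101614184-101614746), Gm24238 on chromosome 18 and Gm44163 on chromosome 6, with changes of 1.78, 1.70 and 1.69 in Mlkl-/-. The regions near Mgat4c and Gm24238 were in no young equal-length list, so their tests add no support beyond the scores. The counts of 8 and 12 rested on single libraries. In WT 1 to 5 members passed without any 1 library of WT or of Aged Mlkl-/-, and 7 or 8 without one of Young Mlkl-/-. In Mlkl-/- 2 to 7 passed without any 1 library of Mlkl-/- or Aged WT replicates 1 and 3, and 9 to 13 without one of the others.

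Loss of Mlkl moved no gene-desert region past the threshold. By limma with an adjusted p under 0.01, no comparison of the genotypes had a member past the threshold: the counts were 0 in 3-month-old, 0 in 18-month-old and 0 in all mice (0% of all regions in each), and 0 for a difference between genotypes in the change with age (0%). The unadjusted p was under 0.05 for 79, 88 and 78 of 1232 members, or 6.41%, 7.14% and 6.33%, against 5.34%, 5.10% and 6.20% of all regions, and 70 members for the difference in age change (5.68%, against 4.79%). The lowest adjusted p-values were 0.505, 0.632, 0.765 and 0.964. The overlap of lists gave the same picture as a description. The Jaccard index of called members (those in both of a pair of libraries over those in either) averaged 0.564 for libraries of the same age and 0.467 for libraries of different ages, but 0.510 and 0.512 for the same and different genotypes. Between ages this gap of 0.0973 compares with 0.0613 for nearer intergenic, 0.0673 for intronic and 0.0192 for start regions.

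Some motif words were found more often and others less often in the regions that rose with age. RUNX matches were in 22 of the 76 (28.9%), against 17.4% of the 1148 tested members that passed in neither direction, AP-1 matches in 19 (25.0%, against 14.98%) and GATA matches in 10 (13.2%, against 6.18%). MEIS matches were in 3 (3.95%, against 14.9%), KLF in 0 (against 6.88%) and CTCF in 1 (1.32%, against 4.36%). ETS matches were in 14 (18.4%, against 22.6%) and CEBP matches in 10 (13.2%, against 10.98%). Among the 568 regions outside deserts that rose, RUNX stood at 19.7%, AP-1 at 17.8%, GATA at 6.87%, MEIS at 15.3% and CTCF at 0.176%. Over all 36636 tested regions outside deserts these were 10.2%, 9.94%, 4.06%, 13.9% and 4.03%. RUNX, AP-1 and GATA matches were thus also more frequent, and CTCF matches rarer, in the regions that rose outside deserts. With 76 regions each count is small, no test was run, and mean GC content was lower in those that rose (43.3% against 45.5%). The AP-1 word of the region near Gm5815 and the RUNX and ETS words of the region near 9330185C12Rik are examples in the sequences above, while the fourth, near Gm29785, holds none of the words.

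**Figure D4:**
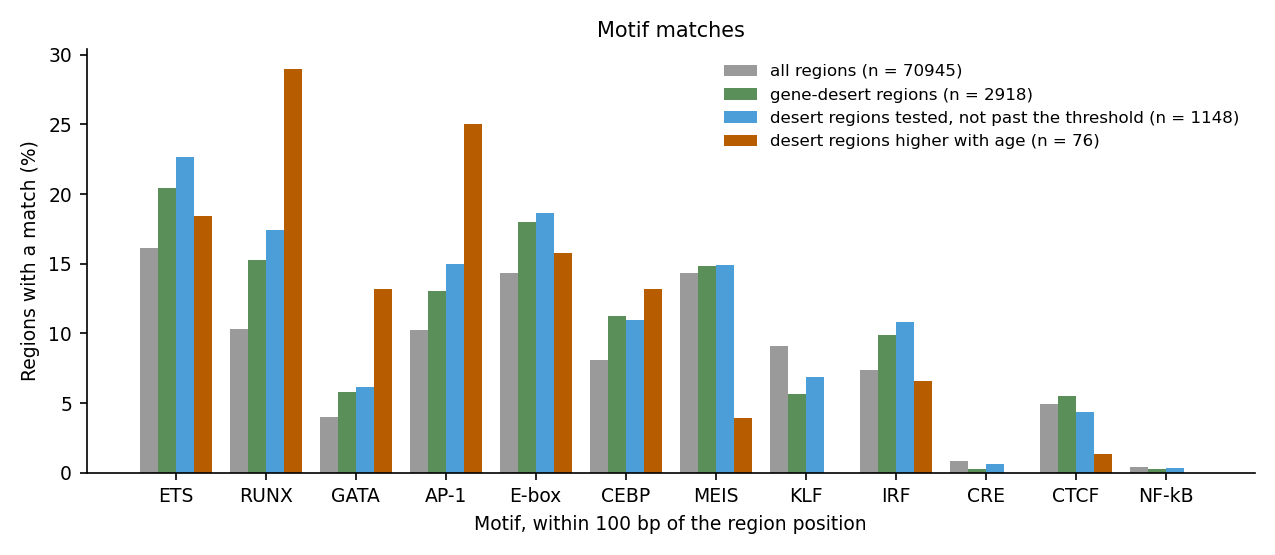
Percentage of regions with a motif match within 100 bp of the region position, for all 70945 regions, the 2918 gene-desert regions, the 1148 tested members past the threshold in neither direction and the 76 that rose with age. RUNX (28.9%), AP-1 (25.0%) and GATA (13.2%) are highest in the members that rose, and KLF was found in none of them.

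Near regulators of blood formation 1 gene-desert region passed the test for age. Of 58 such genes, 21 were the nearest protein-coding gene of at least 1 member, for 75 members in all. Gata3 had 15 members, Runx1 12, Bcl11a 8, which encodes a repressor of fetal globin, and Zeb2 7. Of the 75, 8 were in all 12 full lists, 29 were tested, 0 rose and 1 fell, the region near Gata3 described above, against 6.17% and 0.649% of all tested members and 1.7% and 0.998% of all regions. With 29 regions these counts do not set the group apart. The call of the region near Gata3 was lost in 21 of 31 alternative settings. The 6 tested members near Runx1, which encodes a transcription factor needed to form HSCs, had a median change of 0.35, and its 12 members lay 95.0 to 371 kb from its start. Those at 304 kb (chr16:93129394-93129958) and 371 kb (chr16:93197269-93197818) were in all 12 lists, with changes of 0.35 ± 0.18 and 0.33 ± 0.16 that did not pass (limma adjusted p = 0.244 and 0.223). The region 109 kb from Kit, the receptor for stem cell factor (chr5:75465605-75466189), scored between 6.72 and 21.1 in all 12 libraries and changed by 0.02 ± 0.14 (limma adjusted p = 0.964). A region 251.4 kb from Jun, an AP-1 gene (chr4:95303109-95303885), changed by 0.46 ± 0.12 (limma adjusted p = 0.0282). The most members of any coding gene were near Sel1l (18, the nearest at 454 kb), whose product acts in degradation of misfolded proteins.

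Many members lay close to one another. Linked by gaps of at most 100 kb, the 2918 regions formed 1501 chains, of which 847 held 1 member and 94 held 5 or more (625 members). A chain of 13 between Fam49a and Mycn, which encodes a relative of Myc (chr12:12477655-12628089), had 6 members in all 12 full lists and 7 tested, with none past the threshold. The chains of 13 between Sel1l and Flrt2 (chr12:92619043-92928676) and between Gadd45g, a stress response gene, and Diras2 (chr13:52236036-52455230) had 3 each in all lists. In the latter the constant members lay at 0, 47.2 and 98.8 kb from the first, with weaker ones in 1 to 9 lists between them and beyond. Among the 8 longest chains, those near Bmper (12 members) and between Nox3 and Arid1b (10 members) each held 1 region that rose. Rises were scattered as a rule: 2 chains held 2 of them each, that between P2ry1 and Rap2b (chr3:61064659-61217047) and that between Nup35 and Zfp804a (chr2:81695915-81734586).

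The longest chain was of another kind. It held 22 members within 80.8 kb of chromosome 6 (chr6:114509204-114590018), between Hrh1, which encodes a histamine receptor, and Atg7, which encodes an autophagy enzyme. No member was in more than 9 of the 12 full lists, scores did not exceed 10.4, and the young libraries had 2 to 12 and the aged 6 to 13 of them. The bases within 250 bp had a GC content of 61.0% and 49.4% of repeat bases. The 21 gaps between neighbouring positions were 2.28 to 7.43 kb, and each was within 0.132 of a whole multiple of 2443 bases, 12 of them close to 1 multiple. A shift of 2443 bases is the one, between 500 and 6000, at which the sequence of this stretch is most like itself (30.9% identical bases, against a median of 25.6% over shifts). All 22 windows of this kind shared at least 1 run of 30 bases with another member, against 449 of the 2896 other members (15.5%) and 11 of the 76 that rose (14.5%). Positions in this stretch are uncertain where reads match several copies. The 121 bases around 2 of its most frequent members are shown (mm10, plus strand), with the bases in a 30-base run shared with another member of the chain in capitals.
Member in 9 lists, chr6:114548054-114548174, 100 of 121 bases shared: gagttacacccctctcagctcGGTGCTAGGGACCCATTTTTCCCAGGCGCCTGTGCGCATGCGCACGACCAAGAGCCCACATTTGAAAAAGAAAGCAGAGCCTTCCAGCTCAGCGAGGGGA
Neighbour in 9 lists, chr6:114550547-114550667, 121 of 121 bases shared: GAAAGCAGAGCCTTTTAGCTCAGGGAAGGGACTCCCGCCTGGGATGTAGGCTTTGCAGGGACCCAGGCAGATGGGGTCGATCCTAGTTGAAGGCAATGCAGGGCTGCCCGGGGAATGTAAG

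**Figure D5:**
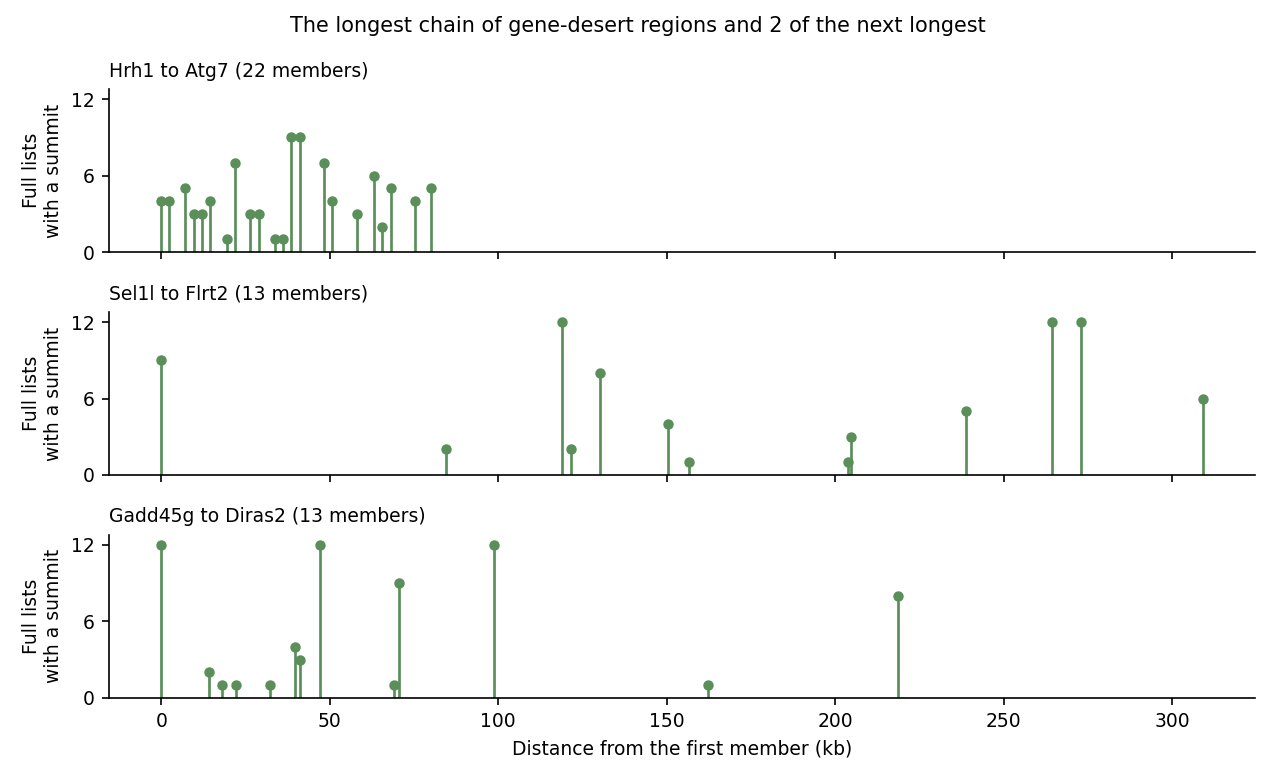
Number of full lists (of 12) with a summit in each member of 3 chains of gene-desert regions, against the distance from the first member in kb. The 22 members between Hrh1 and Atg7 lie within 80.8 kb, at near multiples of 2443 bases, and none reaches 12 lists, while the chains of 13 mix members in all 12 lists with rare ones.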

How the data were processed

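ATAC-seq was performed on HSCs sorted from bone marrow, with 12 libraries in 4 groups of 3. Per the study's methods all samples were processed on the same day and reads were aligned to mm10, and the submitters' processing notes name Bowtie2 2.5.3, MACS2 2.2.7.1, bedtools 2.31.0 and edgeR 3.30.3. The authors called peaks in each library without pooling replicates and deposited the summits with their scores, which are −log10 q-values. The methods state a q cutoff of 0.001, whereas the lists reach lower scores, so a minimum of 3 was applied here. Scores depend on the depth and background of a library, and the depth is unknown. No column was left unmapped.

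Regions were built as described above and annotated with GENCODE M21. Lists were reduced to 35696 summits each. Sequence came from the RefSeq copy of the mm10 assembly. Motif matches within 100 bp of the region position and base composition within 250 bp were computed with pysam 0.24.0. Shares were compared by two-sided exact permutation of age labels within genotype, or of genotype labels within age (400 labellings, smallest p 0.005). Correlations with list length were tested by two-sided permutation of the pairings. Normal scores of within-list ranks were compared with limma 3.58.1 (R 4.3.3, trended prior, 1 fit of the 4 groups with 7 contrasts) over the regions called in at least 3 lists, with Benjamini-Hochberg adjustment and a threshold of 0.01. The procedure was tested on simulated data. Replicate numbers did not pair the libraries: correlations of deviations of same-numbered libraries were −0.301 to 0.129, with 1 of 18 pairs over 0.1. No 2 libraries shared positions and scores.

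Named regions are the 12 or fewer members with the largest change in each direction among those past the threshold without overlap, the 8 with the highest mean rank, the 8 longest chains and those nearest to 58 blood regulators. Nearest genes with the largest number of members, chains with several rises and the members of the longest chain shown as sequence were chosen after their values were seen. The regions, lists and tests were chosen with earlier results of these data known. A gene of the marker lists is not reported here. Alternatives covered the score minimum, list length, window, distance, annotation, filter, scale, covariates, replicates and libraries.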

Additional observations from a re-analysis of the deposited data

Results flagged for a closer look

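Chromosome Y was left out of the catalogue, and its summits were examined separately. There were 16 summits with a score of at least 3 on chromosome Y that lay outside every gene and over 50 kb from a start. Young WT replicate 1 held 7 of them, Young Mlkl-/- replicate 1 held 7 and Young Mlkl-/- replicate 2 held 2. The other 3 young libraries and the 6 aged libraries held 0. The same 3 young libraries had summits at the starts of Y genes (2, 5 and 2), and the 6 aged libraries had 0, so that Y signal in the gene deserts and at gene starts was found in the same libraries.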

How the results depend on the processing

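The age difference in the share of called regions that lie in gene deserts kept its direction and passed the test in all 25 alternatives, with 0.542 to 0.691 points when 1 library was left out, 0.789 with lists of unequal length, 0.349 with GC centring and 0.569 in the 9 libraries whose names carry a shared tag. The same holds for the share among intergenic regions in its 15 alternatives. None of the 25 used list length or Y summits as a covariate. The genotype difference (0.160 points) turned to −0.0121 with GC centring and ranged from 0.0749 to 0.224 when 1 library was left out, and it passed without Young Mlkl-/- replicate 3 (0.221). The difference between genotypes in the age change (0.137) turned to −0.0237 with lists of unequal length and to −0.0325 without Aged WT replicate 2, and reached 0.265 without Aged WT replicate 3. The age count over both genotypes (84) was 172 with lists of unequal length, 203 at an adjusted p under 0.05, 281 with protein-coding genes only, 29 over 100 kb from a start, 14 among regions in all lists, 36 with the Y covariate, 19 in the tagged libraries and 11 with list length as a covariate. In this order, the tested members numbered 1929, 1232, 4754, 357, 291, 1232, 1039 and 1232. Higher members were 7.72%, 13.7%, 4.82%, 7.56%, 3.78%, 2.84%, 1.83% and 0.893% of those tested. Over all regions the higher shares were 2.40%, 4.39%, 1.70%, 1.70%, 1.005%, 0.724%, 0.392% and 0.129%. GC centring gave 62 higher (5.03%, against 1.59% of all regions) and 17 lower (1.38%, against 1.23%). For WT (8) the settings before GC centring gave 28, 63, 24, 3, 0, 5, 1 and 3, for Mlkl-/- (12) 39, 56, 25, 3, 1, 3, 2 and 4. In both genotypes the share of members that were higher exceeded that of all regions in each setting but 1. Among regions in all lists 0 members were higher. WT gave 5 with windows of 100 bp, and regions called in at least 1 list gave 13 in WT and 22 in Mlkl-/-, with 19 in Mlkl-/- for at least 6 lists. Percentiles in place of normal scores gave 0 in both, and a separate fit of 2 groups 0 in WT and 1 in Mlkl-/-. Leaving out 1 library gave 1 to 8 in WT and 2 to 13 in Mlkl-/-. With a replicate block, for numbers that do not pair the libraries, the counts were 5 in WT and 2 in Mlkl-/-, 65 higher and 3 lower over both genotypes, and the age share difference was 0.606 (exact permutation p = 0.03125). Genotype and interaction counts were 0 in each of their 32 or 33 alternatives. Over named regions, 1104 comparisons with an alternative kept direction and side of the threshold, 334 lost the call and 16 values moved by more than the spread. Of the 12 regions named as higher, 7 kept their call in all 31 alternatives. Of the 6 named as lower, 0 kept theirs in all alternatives, and each lost it in 9 to 21. The causes were not tested. The lists hold no counts, so neither depth nor the size of a change in accessibility can be read from them.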
